A study of Mus musculus with 12 samples.

Results

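The genes described here were 10 members of the Krüppel-like factor (KLF) family, Klf2, Klf3, Klf4, Klf5, Klf6, Klf7, Klf9, Klf10, Klf13 and Klf15, taken by symbol from a gene table of 55401 genes, in which 17 Klf genes were listed. Their mRNA was measured in bone marrow MSCs of C57BL/6 mice, bought from a commercial supplier, in 4 groups of 3 libraries. One group was left untreated, one received TGF-β1 at 5 ng/mL, and the other two received TGF-β1 at 5 ng/mL in the culture supernatant (sup) of M-MDSCs or of G-MDSCs, the monocytic and granulocytic subsets of myeloid-derived suppressor cells sorted from bone marrow cultures. The treatment lasted 24 h, and no group received a supernatant without TGF-β1. The labels number the libraries of a group but do not say whether they came from separate cultures, so the p-values measure the spread between these libraries, which may be technical.

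KLF proteins share a carboxy-terminal DNA-binding domain of C2H2 zinc fingers that reads GC-rich and CACCC sequences, the same sites that the related SP factors bind. Their amino-terminal parts differ and recruit activators such as p300 or repressors such as CtBP and SIN3A, so that members with similar DNA-binding domains can have opposite effects on a gene. In mesenchymal cells the family is best known for setting the balance between proliferation, quiescence and the expression of smooth muscle and matrix genes that marks a myofibroblast.

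The libraries held 73977669 to 84565450 counts. Itgb1, Cd44 and Ly6a, the genes of the MSC surface markers CD29, CD44 and Sca-1, were expressed in every group, although Ly6a fell from 245.1 FPKM untreated to 16.2 FPKM with TGF-β1 (adjusted p = 5.15e-09), and Kit and Ptprc were at or below 0.0157 FPKM in all 12 libraries. Cd34, which is often used to exclude MSCs, was at 60.2 to 66 FPKM without treatment and at 10.9 to 17.5 FPKM with TGF-β1. Some transcripts of kidney tubule cells were found only in the 6 libraries with a supernatant, and their values are given beside Klf2 and Klf15. Of the 10 KLF genes, 8 reached 1 FPKM (fragments per kilobase of exon, scaled to the mapped fragments of the library) in at least 3 libraries and were tested among 12016 genes. Klf6 and Klf15 did not, and their tests come from a fit without that filter.

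TGF-β1 alone changed most of the tested family members. Klf2, Klf3, Klf4 and Klf5 fell to between 0.553 and 0.638 of the untreated level, while Klf13 rose 1.91-fold and Klf7 rose 1.31-fold. Thus 4 of 8 tested members were called lower and 2 higher at an adjusted p under 0.05 (edgeR quasi-likelihood test, Benjamini-Hochberg), where 17.9% of all tested genes were called lower and 16.1% higher. The median log2 fold change was -0.13 over the 8 members and 0.00 over all tested genes. The untreated and the TGF-β1 libraries did not overlap for 7 of the 8 members, as for 46.7% of all tested genes. The order of mean levels among the 10 members differed between the groups. In untreated MSCs the 4 highest were those of Klf2 at 11.4, Klf5 at 9.93, Klf4 at 8.38 and Klf3 at 7.38 FPKM, whereas with TGF-β1 the highest mean was that of Klf9 at 9.19 FPKM and Klf4 was the lowest of the tested members at 4.45 FPKM.

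**Figure D1:**
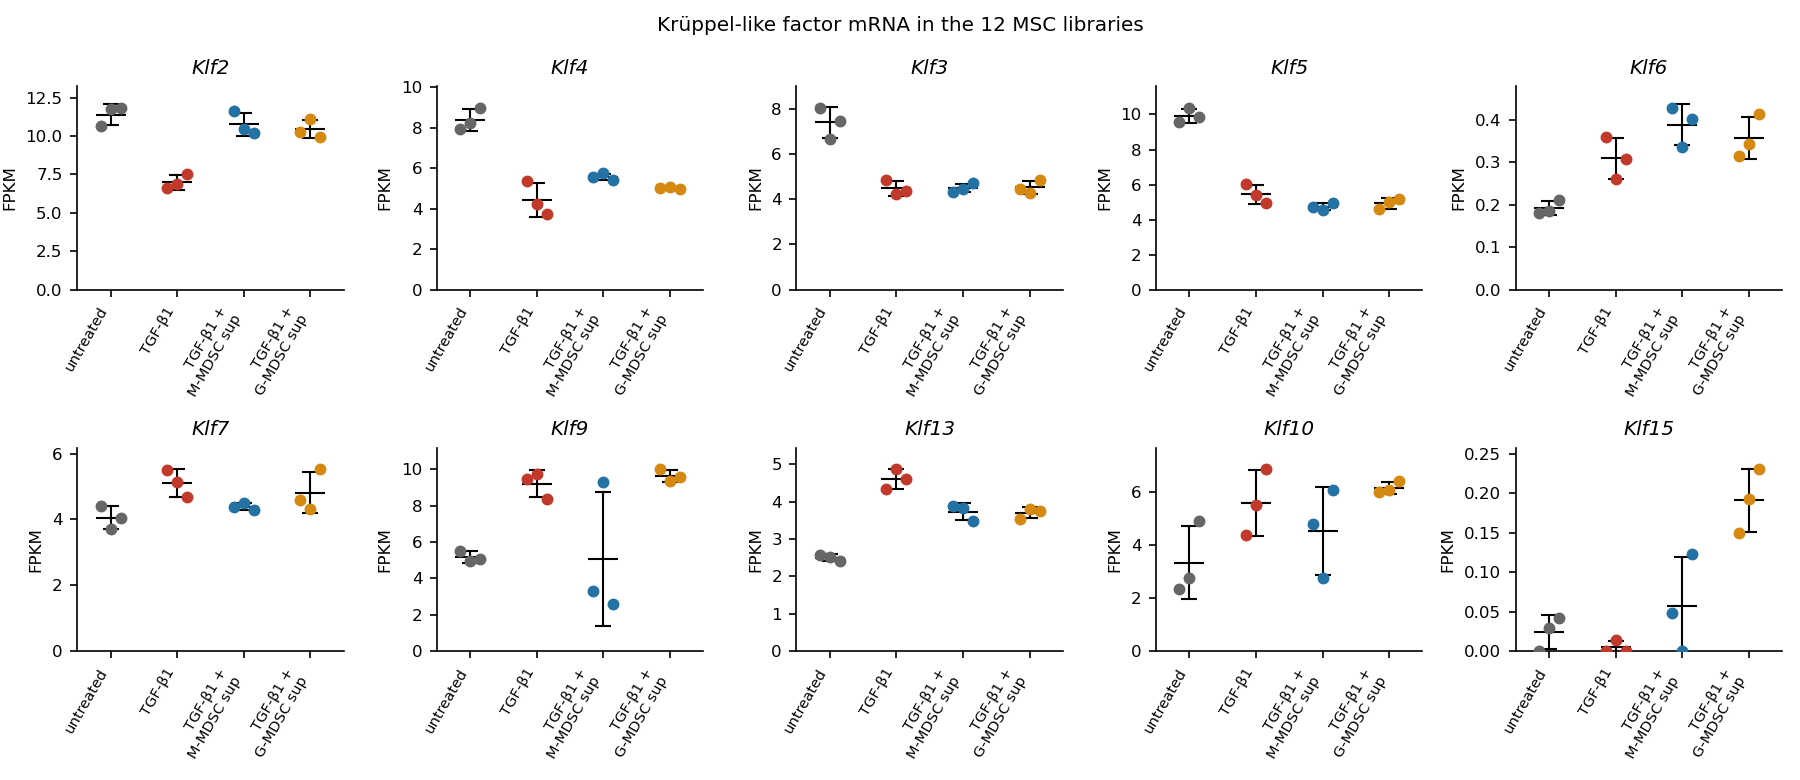
FPKM of the 10 KLF genes in each of the 12 libraries (points), by group on the horizontal axis, with the mean and SD of 3 libraries as bars. Klf2, Klf3, Klf4 and Klf5 were lower in all 3 TGF-β1 libraries than in all untreated ones, Klf13 was higher, and Klf9 with M-MDSC sup was split between 1 library at 9.28 FPKM and 2 libraries at 3.32 and 2.61 FPKM.

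Klf2 and Klf4 are close relatives that are induced together by the ERK5 and MEF2 kinase cascade in endothelial cells. KLF2 keeps endothelial cells and T cells quiescent, and KLF4, one of the factors used to reprogram somatic cells, represses smooth muscle genes. Klf2 (chr8:72319033-72321656 on GRCm38, plus strand) measured 10.6, 11.7 and 11.8 FPKM in untreated MSCs and 6.59, 6.855 and 7.54 FPKM with TGF-β1. All 3 TGF-β1 libraries lay below all untreated ones, and the fall was 0.65 on the log2 scale (SE 0.0811, adjusted p = 0.000106). Klf4 (chr4:55527143-55532466, minus strand) measured 7.93, 8.22 and 8.99 FPKM untreated and 5.39, 4.22 and 3.74 FPKM with TGF-β1. Those groups did not overlap either, and Klf4 fell by 0.86 on the log2 scale (SE 0.11, adjusted p = 0.00017).

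With both supernatants Klf2 was called higher than with TGF-β1 alone and Klf4 was not. Klf2 with M-MDSC sup measured 11.6, 10.45 and 10.2 FPKM, and with G-MDSC sup it measured 10.3, 11.1 and 9.965 FPKM. Every supernatant library was above every TGF-β1 library, and both groups overlapped the untreated one. Klf2 rose 1.51-fold with M-MDSC sup over TGF-β1 alone (log2 0.60, SE 0.0811, adjusted p = 0.00132) and 1.47-fold with G-MDSC sup (log2 0.55, SE 0.0811, adjusted p = 0.00213). It was 1 of the 8 tested members called higher in each of these comparisons, where 2.83% of all tested genes were called higher with M-MDSC sup and 3.1% with G-MDSC sup. The M-MDSC sup and TGF-β1 libraries did not overlap for 4 of the 8 members, where 24% of tested genes did not, and for G-MDSC sup this held for 2 of 8, where 22.7% did not. These comparisons share the TGF-β1 libraries with the one above. Against untreated MSCs, where those libraries do not enter the difference, Klf2 differed by -0.05 with M-MDSC sup (95% interval -0.23 to 0.13, adjusted p = 0.688) and by -0.09 with G-MDSC sup (95% interval -0.27 to 0.09, adjusted p = 0.419). The order of Klf2 levels was therefore untreated, M-MDSC sup and G-MDSC sup, with no neighbours that differed past the threshold, and then TGF-β1 below all of them. Both calls held in every alternative fit that was run, which included leaving out each library of the compared groups in turn.

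Klf4 measured 5.56, 5.75 and 5.42 FPKM with M-MDSC sup and 5.03, 5.1 and 4.97 FPKM with G-MDSC sup. All M-MDSC sup libraries were above the highest TGF-β1 library, but the difference of 0.30 on the log2 scale did not pass the threshold (95% interval 0.05 to 0.55, adjusted p = 0.2). Without TGF-β1 replicate 1, the highest of its group, the difference was 0.46 and passed it (adjusted p = 0.0113). With G-MDSC sup the difference was 0.15 (95% interval -0.10 to 0.40, adjusted p = 0.586). In both supernatant groups Klf4 stayed below untreated MSCs, with falls of 0.55 (adjusted p = 0.00309) and 0.71 (adjusted p = 0.000654) on the log2 scale.

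**Figure D2:**
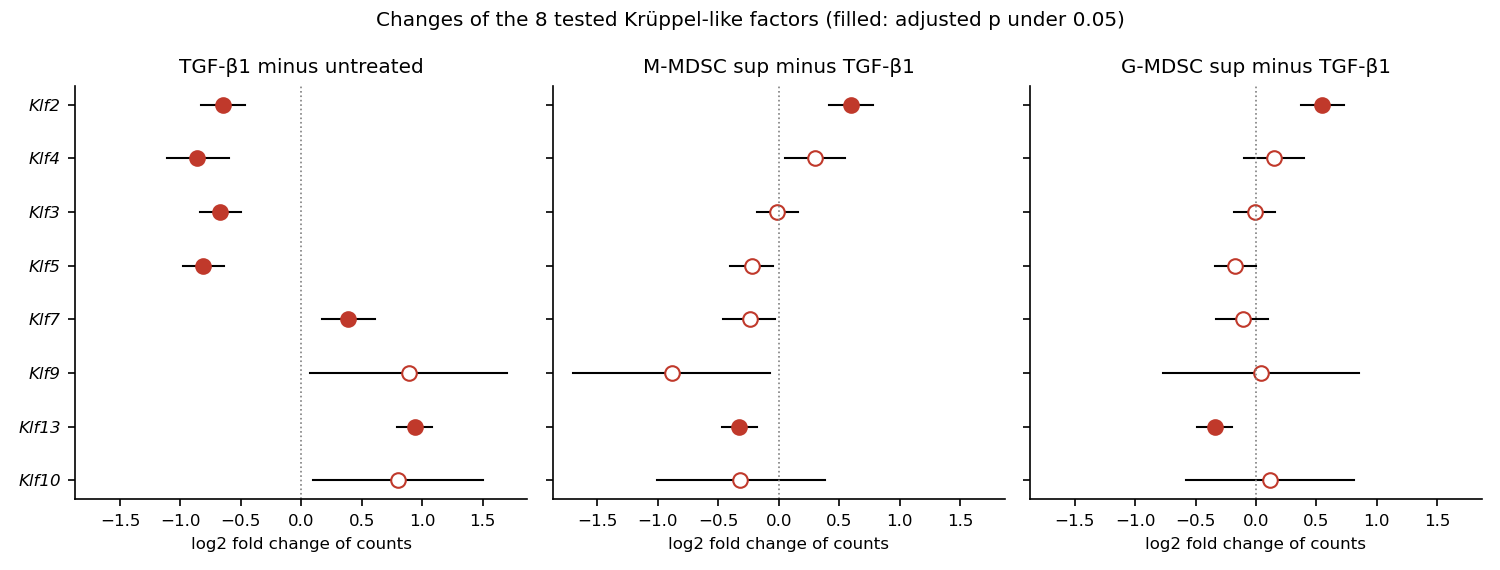
Log2 fold change of counts for the 8 tested KLF genes in 3 comparisons, with the 95% interval as a line and filled circles where the adjusted p was under 0.05. Klf2 lies left of 0 with TGF-β1 and right of 0 with both supernatants, Klf13 shows the opposite signs, and Klf3 lies at 0 in both supernatant comparisons.

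Marker genes of other cell types were examined beside Klf2. Summed over 10 genes of MDSCs and other myeloid cells, FPKM was 13.6 to 15.8 with TGF-β1 alone, 20.5 to 25.9 with M-MDSC sup, 25.8 to 29.4 with G-MDSC sup and 26.9 to 27.9 untreated, most of it Cd14. Cd14 measured 22.65 to 23.5 FPKM in untreated MSCs, 18.5 to 21.4 FPKM with M-MDSC sup and 21.8 to 23.6 FPKM with G-MDSC sup. It was lowest with TGF-β1 alone, at 12.4 to 14.6 FPKM. The MSC marker Ly6a was also lowest there and rose to 92.5 FPKM with M-MDSC sup and 66.95 FPKM with G-MDSC sup (adjusted p = 2.38e-07 and 1.54e-06). The leukocyte marker Ptprc was at most 0.0157 FPKM, Mpo was listed at 0 in all libraries, and Lyz2 rose from at most 0.094 FPKM with TGF-β1, and at most 0.191 FPKM untreated, to between 0.651 and 2.29 FPKM with a supernatant. Ly6g and Ly6c2 were highest untreated, with means of 1.835 and 1.71 FPKM. Their means were 0.0681 and 0.045 FPKM with TGF-β1, 0.0619 and 0.148 FPKM with M-MDSC sup and 0.125 and 0.211 FPKM with G-MDSC sup. Csf1r had means of 0.631, 1.03, 1.075 and 1.19 FPKM in the same order of groups, and S100a8 of 0.0211, 0, 0.149 and 0.208 FPKM. S100a9, a gene of granulocytes and monocytes, was at 0 in all 6 libraries without supernatant, at 0.98, 0.258 and 0.4895 FPKM with M-MDSC sup and at 0, 0 and 3.4 FPKM with G-MDSC sup. Itgam and Fcgr3 were at most 0.00106 and 0.0242 FPKM without supernatant and reached 0.0927 and 0.169 FPKM with one, and these 3 genes did not pass the threshold relative to TGF-β1 in the fit without a filter (adjusted p from 0.329 to 0.698). Of 14 genes known from kidney tubules, Kap, Slc34a1, Umod, Napsa and Fxyd2 were at 0 in all 6 libraries without supernatant and present in all 6 with one. The kidney androgen-regulated transcript Kap measured 13.1, 9.2 and 69.2 FPKM with M-MDSC sup, and Klf2 measured 11.6, 10.45 and 10.2 FPKM in the same libraries. With G-MDSC sup, Kap measured 37.1, 51.2 and 47.3 FPKM, and Klf2 measured 10.3, 11.1 and 9.965 FPKM. In the library with the most Kap, Klf2 was thus the lowest of the M-MDSC sup group but the highest of the G-MDSC sup group. The part of other cells in the level of Klf2 was not tested. In bulk RNA, fewer cells that express a gene and less RNA of it per cell cannot be told apart.

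RefSeq promoter windows, the 250 bases before the start of a gene, were available for 8 of the 10 members on GRCm38.p6. They are shown for the members that fell with TGF-β1 and were raised by the supernatants (Klf2) or were not (Klf4, Klf3), and for Klf13, which moved the opposite way. Only bases that also lie before the start in the deposited table are printed, which leaves 221 bases for Klf2, 117 bases for Klf3 and the whole window for Klf4 and Klf13. Lower case is sequence before the annotated start, 5′ to 3′ on the strand of the gene, and capitals mark a MEF2 site or a CACCC box on either strand (written GGGTG on the other). The printed stretches are Klf2 at chr8:72318812-72319032 (plus strand), Klf4 at chr4:55532476-55532725 (minus strand), Klf3 at chr5:64803271-64803387 (plus strand) and Klf13 at chr7:63938916-63939165 (minus strand).
Klf2: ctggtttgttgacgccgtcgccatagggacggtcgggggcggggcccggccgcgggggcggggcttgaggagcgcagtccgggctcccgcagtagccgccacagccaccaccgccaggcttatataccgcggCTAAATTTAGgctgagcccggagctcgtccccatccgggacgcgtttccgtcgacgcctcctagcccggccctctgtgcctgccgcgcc
Klf4: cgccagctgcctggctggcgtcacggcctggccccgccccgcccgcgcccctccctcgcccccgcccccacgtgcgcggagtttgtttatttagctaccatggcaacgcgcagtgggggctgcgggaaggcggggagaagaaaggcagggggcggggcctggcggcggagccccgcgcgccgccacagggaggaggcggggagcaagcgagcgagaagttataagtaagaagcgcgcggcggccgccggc
Klf3: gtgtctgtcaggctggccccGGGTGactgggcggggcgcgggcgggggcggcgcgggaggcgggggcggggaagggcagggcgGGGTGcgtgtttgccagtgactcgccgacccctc
Klf13: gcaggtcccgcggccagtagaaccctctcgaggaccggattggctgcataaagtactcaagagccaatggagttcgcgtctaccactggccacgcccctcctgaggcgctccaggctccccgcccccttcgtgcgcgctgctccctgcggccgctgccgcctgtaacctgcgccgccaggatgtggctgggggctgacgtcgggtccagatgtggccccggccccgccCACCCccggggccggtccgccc
Counts refer to the full windows of 250 bases. Of these 8, that of Klf2 alone held a match to the MEF2 site, CTAAATTTAG, which begins 118 bases before the RefSeq start, and 2.92% of 32851 such windows in the genome held one. CACCC boxes stood in 6 of the 8 windows, with 5 in that of Klf3, against 52% of all windows. The 1 box of Klf2 and 3 of the 5 boxes of Klf3 lie in the bases that are not printed. The GC box GGGCGG stood in 7 of 8, with 6 for Klf3, 4 for Klf4, 3 for Klf13 and 2 for Klf2, against 32.7%. The SMAD sequence CAGAC stood in the windows of Klf3 and Klf15 against 42.2% of all, and the glucocorticoid response element, as an exact palindrome with a spacer of any bases, in none of the 8 against 0.00913% of all. These are matches of letters, and binding was not measured.

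Klf3 and Klf5 fell with TGF-β1 and stayed low with either supernatant. KLF3 is a repressor that works through CtBP, and KLF5 is an activator of proliferation genes in smooth muscle cells, fibroblasts and epithelia. Klf3 (chr5:64803388-64832901, plus strand) measured 8.03, 6.68 and 7.44 FPKM untreated and 4.83, 4.23 and 4.34 FPKM with TGF-β1, with no overlap, a fall of 0.67 on the log2 scale (SE 0.0769, adjusted p = 5.81e-05). Its mean was 4.49 ± 0.187 FPKM with M-MDSC sup and 4.52 ± 0.28 FPKM with G-MDSC sup (SD, n = 3), against 4.47 ± 0.321 FPKM with TGF-β1 alone. The differences from TGF-β1 alone were -0.01 in both supernatant groups, with 95% intervals of -0.18 to 0.16, which leave out a change of the size seen for Klf2. The antisense gene Gm20033 and the same-strand gene C230096K16Rik overlap Klf3 and had 13 to 100 and 14 to 104 counts per library against 4054 to 7715 for Klf3. Whether the counting used strand is not stated, so their reads cannot be told apart from those of Klf3.

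Klf5 (chr14:99298691-99315036, plus strand) measured 9.59, 10.4 and 9.83 FPKM untreated and 6.025, 5.38 and 4.93 FPKM with TGF-β1, again with no overlap, and fell by 0.81 on the log2 scale (SE 0.0776, adjusted p = 1.4e-05). With M-MDSC sup it measured 4.7, 4.54 and 4.96 FPKM and with G-MDSC sup 4.6, 4.99 and 5.17 FPKM. All but 1 of these 6 values were at or below 4.994 FPKM, but both groups overlapped the TGF-β1 group, and the differences of -0.22 (adjusted p = 0.161) and -0.17 (adjusted p = 0.288) did not pass the threshold. Within each supernatant group, Klf5 showed the largest fall of any member against untreated MSCs. It fell to 0.488 of the untreated level with M-MDSC sup (adjusted p = 2.32e-06) and to 0.506 with G-MDSC sup (adjusted p = 3.53e-06).

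Klf6 and Klf7 are related members that are widely expressed. KLF6 is an early response gene that is known from activated stellate cells of the liver, and KLF7 from neurons and from preadipocytes, in which it holds back differentiation. Klf7 (chr1:64029447-64121491, minus strand) measured 4.4, 3.7 and 4.06 FPKM untreated and 5.51, 5.13 and 4.69 FPKM with TGF-β1, with no overlap, and rose by 0.39 on the log2 scale (SE 0.0976, adjusted p = 0.00986). With M-MDSC sup it measured 4.38, 4.49 and 4.29 FPKM, all below the lowest TGF-β1 library, but the difference of -0.24 did not pass the threshold (95% interval -0.46 to -0.03, adjusted p = 0.233). With G-MDSC sup, values of 4.59, 4.33 and 5.52 FPKM spanned both groups. The call of Klf7 against untreated MSCs with G-MDSC sup (log2 0.28, adjusted p = 0.0474) was lost in 10 of the alternative fits, with adjusted p from 0.0595 to 0.17. Klf6 (chr13:5861482-5870394, plus strand) was low throughout, at 68, 77 and 83 counts untreated and 142, 105 and 122 counts with TGF-β1, or 0.192 ± 0.0157 and 0.31 ± 0.0483 FPKM (SD, n = 3). All TGF-β1 libraries were above all untreated ones and Klf6 rose by 0.75 on the log2 scale (SE 0.19, adjusted p = 0.0225), a call that was lost in 7 of the alternative fits. It was at 157, 122 and 153 counts with M-MDSC sup and 131, 133 and 164 counts with G-MDSC sup, and was called higher than untreated in both (log2 1.06, adjusted p = 0.00264, and log2 0.93, adjusted p = 0.00597).

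Klf9, Klf13 and Klf10 belong to the branch of the family that represses through SIN3A. KLF9 is induced by glucocorticoids and thyroid hormone, KLF13 drives late chemokine expression in T cells, and KLF10 was first found as an early gene of the TGF-β response. Klf13 (chr7:63886351-63938915, minus strand) measured 2.59, 2.51 and 2.41 FPKM untreated and 4.34, 4.865 and 4.61 FPKM with TGF-β1. The groups were far apart, and Klf13 rose 1.91-fold (log2 0.94, SE 0.0661, adjusted p = 1.39e-06). With M-MDSC sup it measured 3.88, 3.83 and 3.47 FPKM and with G-MDSC sup 3.54, 3.81 and 3.76 FPKM, so that all 6 supernatant libraries lay between the untreated and the TGF-β1 libraries.

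Klf13 thus fell by 0.33 on the log2 scale with M-MDSC sup (SE 0.0655, adjusted p = 0.0163) and by 0.34 with G-MDSC sup (SE 0.0655, adjusted p = 0.011), and was the 1 member of 8 called lower in each comparison, where 1.95% and 2.46% of all tested genes were called lower. It remained 1.53-fold and 1.51-fold above untreated MSCs (adjusted p = 3.54e-05 and 4.34e-05). The falls rest on a narrow margin. They missed the threshold when only the compared groups were fitted (adjusted p = 0.0966 and 0.0537), and for M-MDSC sup also without TGF-β1 replicate 2 (0.0718), TGF-β1 replicate 3 (0.0651) or M-MDSC sup replicate 3 (0.0667), with a log2 fold change from -0.31 to -0.28 in these 4 fits. For G-MDSC sup they missed it without TGF-β1 replicate 2 (0.051), TGF-β1 replicate 3 (0.0514) or G-MDSC sup replicate 1 (0.0563).

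Klf9 (chr19:23141226-23168134, plus strand) measured 5.53, 4.94 and 5.05 FPKM untreated, 9.47, 9.76 and 8.345 FPKM with TGF-β1, and 9.99, 9.345 and 9.57 FPKM with G-MDSC sup. Each of these groups was tight, and both treated groups were above all untreated libraries. The M-MDSC sup libraries, in contrast, measured 3.32, 9.28 and 2.61 FPKM. Replicates 1 and 3 lay below all 9 libraries of the other groups, and replicate 2 lay within the range of the TGF-β1 libraries. The coefficient of variation of Klf9 in that group was 72.3%, and 1.77% of all tested genes varied as much there, with a median of 6.62%.

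This single library decided the calls of Klf9 in every comparison but one. With all 12 libraries, none passed the threshold, with log2 fold changes of 0.89 for TGF-β1 over untreated (adjusted p = 0.0912), -0.88 for M-MDSC sup over TGF-β1 (adjusted p = 0.254), 0.04 for G-MDSC sup over TGF-β1 (adjusted p = 0.974) and -0.92 for M-MDSC sup over G-MDSC sup (adjusted p = 0.737). The fit shares 1 estimate of spread over all groups. Without M-MDSC sup replicate 2, Klf9 was called 0.89 higher with TGF-β1 than untreated (adjusted p = 7.79e-05) and 0.93 higher with G-MDSC sup (adjusted p = 6.04e-05), and the same held when only the compared groups were fitted (adjusted p = 0.000384 and 0.00013). It was then also 1.66 lower with M-MDSC sup than with TGF-β1 (adjusted p = 1.65e-05), 1.70 lower than with G-MDSC sup (adjusted p = 0.000534) and 0.77 lower than untreated (adjusted p = 0.000584), where the difference with all libraries had been 0.01. Which of the M-MDSC sup libraries stands for the treatment cannot be told from these data. Leaving out M-MDSC sup replicate 1 or 3 instead gave -0.69 and -0.61 against G-MDSC sup, with neither past the threshold.

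**Figure D3:**
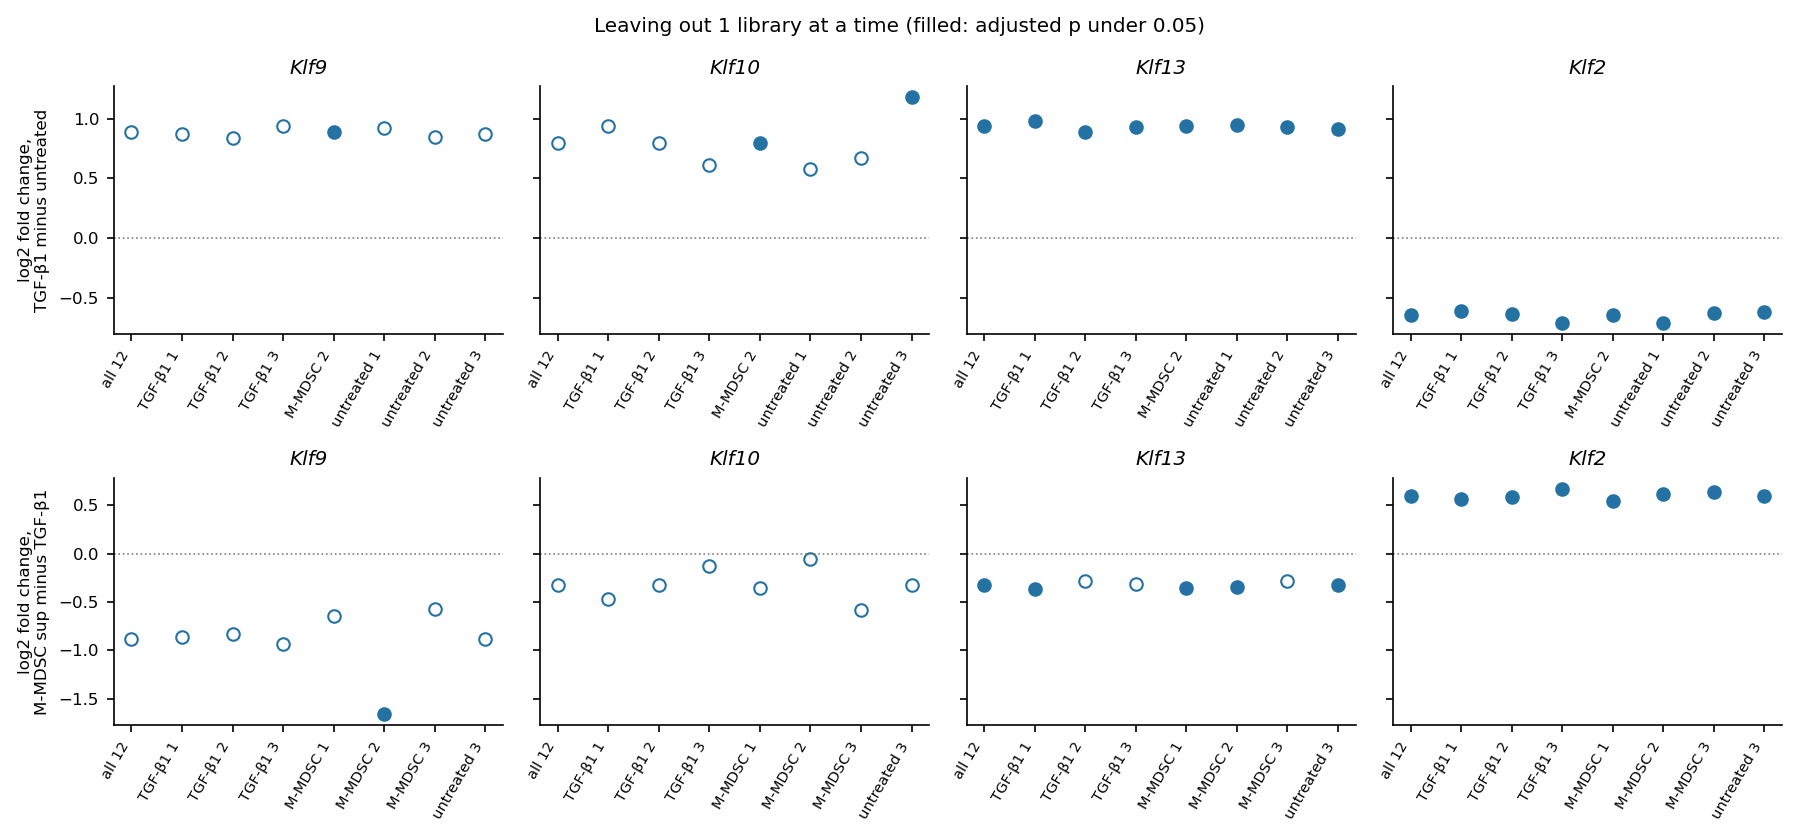
Log2 fold change of Klf9, Klf10, Klf13 and Klf2 with all 12 libraries and with the library named on the horizontal axis left out, for TGF-β1 over untreated (upper row) and M-MDSC sup over TGF-β1 (lower row), where filled circles have an adjusted p under 0.05. Klf2 was called in every case, and Klf9 was called only without M-MDSC sup replicate 2.

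Klf10 (chr15:38291463-38300706, minus strand) varied between libraries more than most genes. It measured 2.34, 2.76 and 4.92 FPKM untreated, 4.38, 5.5 and 6.85 FPKM with TGF-β1, 4.79, 2.77 and 6.06 FPKM with M-MDSC sup, and 6, 6.07 and 6.42 FPKM with G-MDSC sup. Untreated replicate 3 overlapped the TGF-β1 group, and M-MDSC sup replicate 2 was as low as the untreated libraries, while the G-MDSC sup group was tight. The difference between TGF-β1 and untreated MSCs was 0.80 on the log2 scale (SE 0.32, adjusted p = 0.0783). Without untreated replicate 3 it was 1.18 (adjusted p = 0.0136), and without M-MDSC sup replicate 2 it was 0.80 (adjusted p = 0.0428). DESeq2 called it as well (adjusted p = 0.0207). It was not called when only the 2 groups were fitted (adjusted p = 0.102), and over the libraries left out the difference ran from 0.58 to 1.18 with adjusted p from 0.0136 to 0.227. Klf10 was called 0.92 higher with G-MDSC sup than untreated (adjusted p = 0.0455), and that call was lost in 6 alternative fits, with adjusted p from 0.0688 to 0.139. Neither supernatant changed Klf10 past the threshold relative to TGF-β1, with differences of -0.32 (95% interval -1.01 to 0.38) and 0.12 (95% interval -0.58 to 0.81), intervals that hold changes as large as those of Klf2.

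Klf15, a factor of amino acid and glucose metabolism in liver, muscle and fat that is also made in the kidney, was barely detected. Klf15 (chr6:90462576-90475238, plus strand) had 0, 8 and 11 counts in untreated libraries and 0, 4 and 0 counts with TGF-β1. It had 12, 0 and 30 counts with M-MDSC sup and 40, 48 and 58 counts with G-MDSC sup. The G-MDSC sup libraries were above all others, at 0.15, 0.193 and 0.231 FPKM. In the fit without a filter the difference from TGF-β1 did not pass the threshold (adjusted p = 0.185), and it did with DESeq2 (adjusted p = 0.0166), with counts divided by 4 (adjusted p = 0.0336) and with limma on log2(FPKM + 1) (adjusted p = 0.00873).

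Counts of Klf15 were found both in libraries with and in libraries without kidney tubule transcripts such as Kap, Slc34a1 and Umod. Untreated replicates 2 and 3 and TGF-β1 replicate 2 had Klf15 counts and none of these 3 transcripts, and M-MDSC sup replicate 2 had all 3 and no Klf15 count. The sum over 14 kidney tubule genes was 29.3 to 30.9 FPKM in untreated MSCs, nearly all of it Aqp1 at 28.85 to 30.4 FPKM. The sum was 4.67 to 4.87 FPKM with TGF-β1 alone, nearly all of it Aqp1, and 38.5 to 114 FPKM with M-MDSC sup and 77 to 88.3 FPKM with G-MDSC sup. Umod, which encodes the uromodulin of the loop of Henle, had 214, 223 and 1020 counts with M-MDSC sup and 553, 521 and 592 counts with G-MDSC sup. The phosphate transporter gene Slc34a1 had 151, 235 and 694 counts and 714, 513 and 622 counts. Within the M-MDSC sup group, replicate 3 held the most of Klf15, Kap, Slc34a1 and Umod. In the remaining libraries of that group, Klf15 was at 12 and 0 counts. Of these 14 genes, 9 passed the filter, and all of these but Aqp1 did so through the supernatant groups, so that their calls are not given as a result. Aqp1 was called lower with G-MDSC sup than with TGF-β1 (log2 -0.40, adjusted p = 0.0328). The part of kidney RNA in the Klf15 counts was not tested.

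**Figure D4:**
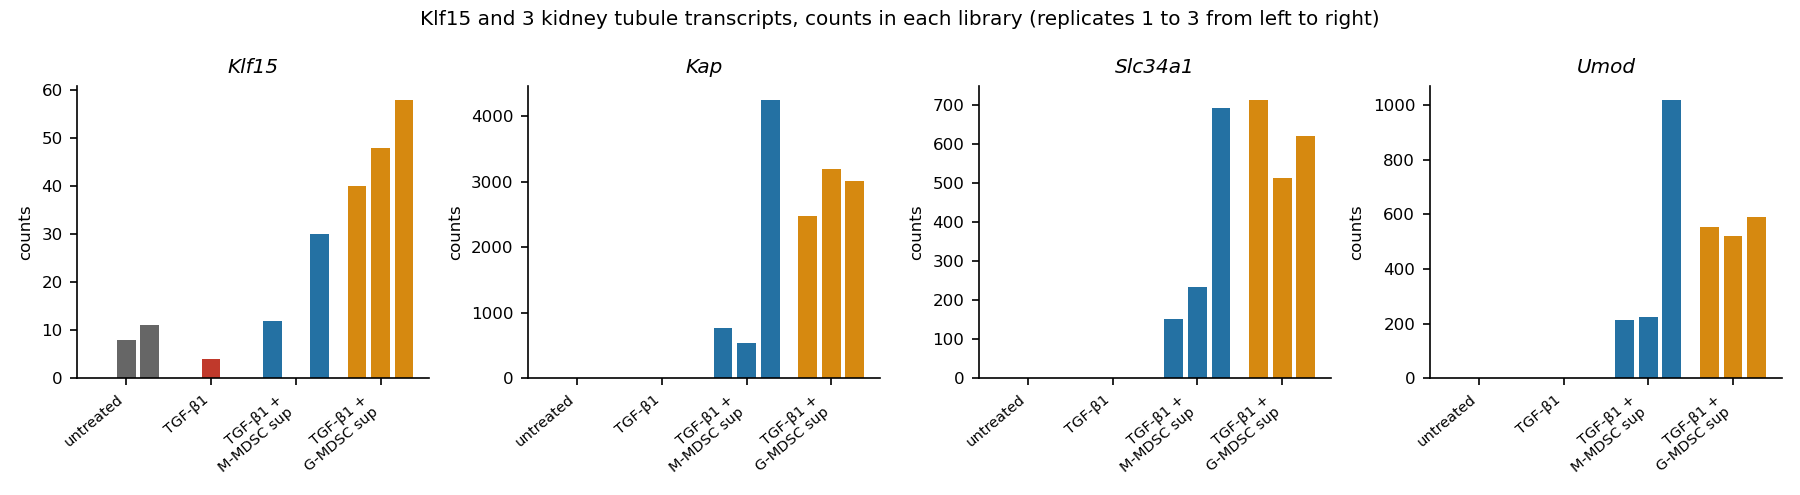
Counts of Klf15 and of the kidney tubule genes Kap, Slc34a1 and Umod in each of the 12 libraries, as bars in the order of replicates 1 to 3 in each group. The 3 kidney genes were at 0 counts in all 6 libraries without supernatant, and Klf15 was highest in the 3 G-MDSC sup libraries at 40 to 58 counts.

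No member was called different between M-MDSC sup and G-MDSC sup, where 0.125% of all tested genes, 15 in number, were called at all. At an unadjusted p under 0.05 the edgeR test counted 1 of the 8 tested members, Klf9, and DESeq2 called 0 of them. Intervals for Klf2 (-0.13 to 0.22), Klf3 (-0.17 to 0.17), Klf5 (-0.22 to 0.12) and Klf13 (-0.13 to 0.16) held the difference within 0.22 on the log2 scale in either direction, while the intervals of Klf4 (-0.10 to 0.40), Klf7 (-0.35 to 0.09), Klf10 (-1.13 to 0.26) and Klf9 (-1.74 to -0.11) were wider. Relative to untreated MSCs, 1 of the 8 members that passed the filter was called higher and 3 lower with M-MDSC sup, and 3 higher and 3 lower with G-MDSC sup, where 16.4% of tested genes were called higher in both, and 18.9% and 18.4% lower. Klf3, Klf4 and Klf5 were the members called lower in both groups, and Klf13 was called higher in both, as was Klf6 in the fit without a filter. The M-MDSC sup libraries lay apart from the untreated ones for 4 of the 8 members, where 47.4% of tested genes did, and the G-MDSC sup libraries for 6, where 46% did. The 2 supernatant groups lay apart from each other for Klf4 and Klf9, 2 of 8, where 12% of tested genes did.

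Among the remaining Klf genes, Klf11, a relative of Klf10 that likewise responds to TGF-β, and Klf16 were tested. Klf11 rose from 2.61 ± 0.113 FPKM untreated to 3.56 ± 0.415 FPKM with TGF-β1 (SD, n = 3; log2 0.51, adjusted p = 0.00117), and Klf16 was at 9.57 ± 0.696 and 9.44 ± 0.84 FPKM (adjusted p = 0.782). Klf12, a repressor that was under the filter, had 51, 95 and 45 counts untreated and 204, 207 and 176 counts with TGF-β1 and rose by 1.68 on the log2 scale in the fit without a filter (adjusted p = 0.00593). Klf1, Klf8, Klf14 and Klf17 had at most 129 counts in any library. Of the 9 SP factor genes, 3 were tested, and Sp1 was the 1 called, lower with M-MDSC sup than with TGF-β1 (log2 -0.29, adjusted p = 0.00693), where 1.95% of all tested genes were called lower. The Sp1 value with G-MDSC sup was -0.13 (adjusted p = 0.2), and the difference between the supernatants was -0.16 (adjusted p = 0.511).

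Genes whose products work with KLF proteins were taken as lists, and their counts with TGF-β1 stand beside 16.1% higher and 17.9% lower among all tested genes. For the supernatants relative to TGF-β1 the background was 2.83% called higher and 1.95% called lower with M-MDSC sup and 3.1% and 2.46% with G-MDSC sup, so that few or no calls in lists of this size are near the background. Of 12 co-regulator genes, all tested, TGF-β1 raised 3 and lowered 1, which together is near the share of all genes called, with a median log2 fold change of 0.08. None was called with a supernatant relative to TGF-β1 by the edgeR test. At an unadjusted p under 0.05 there was 1 in each of these comparisons, and DESeq2 called 1 with M-MDSC sup and 0 with G-MDSC sup. Kat2b, an acetyltransferase, fell by 0.65 on the log2 scale with TGF-β1 (adjusted p = 5.47e-05), and the demethylase gene Kdm1a and the CtBP gene Ctbp2 rose by 0.28 each (adjusted p = 0.00492 and 0.00106). Of 8 genes of ubiquitin ligases that can degrade KLF proteins, TGF-β1 raised 3 and lowered 1, with a median of 0.14. Wwp1, whose protein targets KLF2 and KLF5, fell by 0.57 (adjusted p = 0.00117). Smurf2 rose by 0.38 (adjusted p = 8.27e-06) and was the 1 ligase gene called lower with each supernatant, by 0.22 and 0.23 (adjusted p = 0.00326 and 0.00197). Of the 8 genes of the ERK5 and MEF2 cascade above Klf2 and Klf4, 6 were tested. Mef2a and Mef2d rose by 0.31 and 0.26 with TGF-β1 (adjusted p = 0.00447 and 0.00559), opposite in sign to Klf2 and Klf4, and 0 of the 6 were called with either supernatant relative to TGF-β1. At an unadjusted p under 0.05 there were 0 with M-MDSC sup and 1 with G-MDSC sup, and DESeq2 called 0 in both.

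Of 12 genes of the glucocorticoid response, which are the receptor gene Nr3c1 and genes that glucocorticoids induce as they do Klf9, 10 were tested, and TGF-β1 raised 1 and lowered 6, with a median of -0.74, where 16.1% of all tested genes were called higher and 17.9% lower with a median of 0.00. Cebpd fell by 2.40, Mt2 by 1.66, Mt1 by 1.22 and Errfi1 by 1.19 on the log2 scale (adjusted p from 2.48e-07 to 4.01e-06). The 1 that rose was Tsc22d3, which encodes GILZ, by 0.78 (adjusted p = 0.0128), and the remaining 3, Fkbp5 at 0.12, Sgk1 at 0.09 and Nr3c1 at -0.15, were not called. With either supernatant the edgeR test called 0 of the 10 relative to TGF-β1. There were 3 at an unadjusted p under 0.05 in each comparison, and DESeq2 called 1 with M-MDSC sup and 0 with G-MDSC sup. Of 12 early genes of the TGF-β response, the class in which Klf10 was found, 8 rose and 3 fell with TGF-β1, with Ccn2 at 2.53, Pmepa1 at 1.76 and Id3 at -1.84 on the log2 scale, a median of 1.02. Relative to TGF-β1, 1 of the 12 rose and 1 fell with M-MDSC sup, and 1 rose and 3 fell with G-MDSC sup, with a median of -0.08 in each. Among all tested genes, 2.83% were called higher and 1.95% lower with M-MDSC sup, and 3.1% and 2.46% with G-MDSC sup.

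Of 17 genes known as direct targets of KLF factors, 12 were tested, and 4 rose and 7 fell with TGF-β1, with a median of -0.32, where 16.1% of all tested genes were called higher and 17.9% lower. Thbd, which encodes thrombomodulin and is activated by KLF2 and KLF4, measured 5.12, 5.55 and 4.61 FPKM untreated and 1.68, 1.65 and 1.74 FPKM with TGF-β1, a fall of 1.53 on the log2 scale (adjusted p = 6.71e-07). With M-MDSC sup it measured 1.76, 1.94 and 2.17 FPKM, a difference of 0.19 (adjusted p = 0.373), and with G-MDSC sup 2.17, 2.16 and 2.41 FPKM, a rise of 0.38 (adjusted p = 0.0482). Thbd thus stayed below the untreated libraries in both supernatant groups. Relative to TGF-β1, 0 of the 12 targets were called higher and 2 lower with M-MDSC sup, and 3 higher and 3 lower with G-MDSC sup, where 2.83% and 1.95% of all tested genes were called with M-MDSC sup and 3.1% and 2.46% with G-MDSC sup. With M-MDSC sup, the edgeR test gave 7 of the 12 an unadjusted p under 0.05 in either direction, and DESeq2 called 5. The 2 that fell with both were the smooth muscle genes Acta2 and Tagln, named here after their values were seen. Acta2 had means of 1528 FPKM untreated, 2123 FPKM with TGF-β1, 1595 FPKM with M-MDSC sup and 1516 FPKM with G-MDSC sup, and fell by 0.44 and 0.51 on the log2 scale (adjusted p = 0.000587 and 0.00017). Tagln had means of 126.7, 189, 130.9 and 131.3 FPKM in the same order and fell by 0.55 with each supernatant (adjusted p = 0.00252 and 0.00243). The growth factor gene Pdgfa, a KLF5 target, rose by 1.70 with TGF-β1 (adjusted p = 1.42e-05) while Klf5 fell, and the galectin gene Lgals3 fell by 1.63 (adjusted p = 4.79e-06). Targets of a factor and the factor were compared here by their mRNA levels alone.

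Over the 12 libraries, the genes whose log2(FPKM + 1) was most like that of Klf9 were Tns3, a focal adhesion gene, with a Pearson correlation of 0.941, and Aebp2 and Fnip2, both with 0.860. Tns3 measured 22.5, 34.3 and 20.1 FPKM in the M-MDSC sup libraries, against 21.6 to 23.95 FPKM untreated, 33.2 to 34.1 FPKM with TGF-β1 and 32.8 to 36.3 FPKM with G-MDSC sup. Replicate 2 of M-MDSC sup thus lay at the level of the TGF-β1 libraries for Tns3 as for Klf9, and the other two lay near the untreated ones. The genes most like Klf5 were Zcchc24 (0.993), Nrbp2 (0.992) and the ERK1 gene Mapk3 (0.990), and those most like Klf4 were Ssc5d (0.980), Lrba (0.975) and Tmem45a (0.968). These correlations are descriptions that span the differences between the 4 groups, and the libraries of a group are not independent of their treatment.

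**Figure D5:**
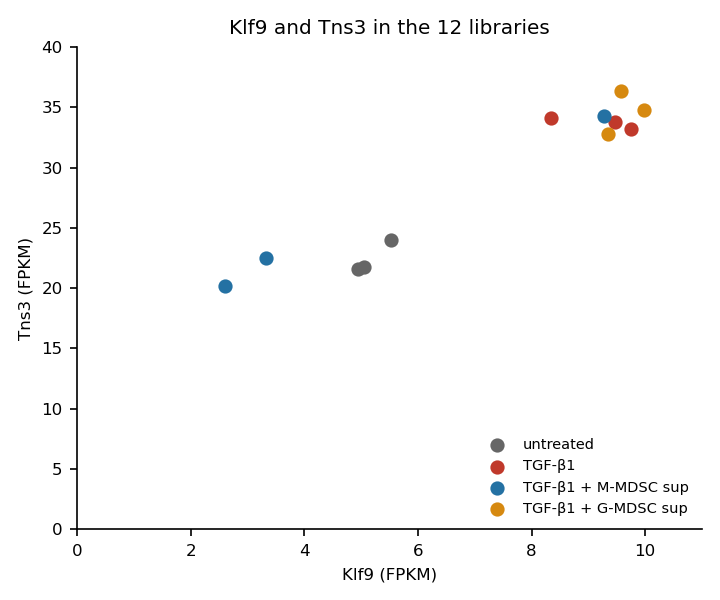
FPKM of Klf9 (horizontal axis) and of Tns3 (vertical axis) in the 12 libraries, coloured by group. The libraries fall into a lower cluster with all untreated ones and 2 of M-MDSC sup and an upper cluster with the others, which holds M-MDSC sup replicate 2.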

How the data were processed

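Poly(A) RNA of 12 libraries was sequenced in paired-end mode. By the study's methods, the authors used fastp for read quality, HISAT2 for alignment to GRCm38 and StringTie for assembly, and the submitters' processing notes list cutadapt 1.9, HISAT2 2.0.4 and StringTie 1.3.4d. The deposited table holds raw counts and the FPKM that the authors calculated for each gene and library. The counting tool is not given in the sources used here. Among counts from 1 to 12, 44.3% were 4, 8 or 12. Start and end were those of GENCODE vM21 for 94.2% of the 55141 genes with an ID there and for 9 of the 10 members, and the end of Klf7 differed.

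A gene was tested if 3 or more of the 12 libraries reached 1 FPKM, which held for 12016 genes. Normalization was by TMM (factors 0.978 to 1.03). All 4 groups were fitted in one edgeR 4.0.16 model in R 4.3.3, and contrasts were tested with its two-sided quasi-likelihood test. Benjamini-Hochberg adjustment covered all tested genes, and a gene was called at an adjusted p under 0.05. Klf6, Klf15 and other genes under the filter were fitted without it. Errors are SD over 3 libraries for FPKM and SE of the fit for log2 fold changes, with 95% intervals. Total counts per library were 73977669 to 84565450, and these errors hold counting error and the spread between libraries together. The test was tested on simulated data with known changes, where called genes had the right sign but part of the changed genes was not called and a few unchanged genes were. A first, stricter limit on the share recovered was not met and was replaced.

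Alternatives were median-ratio scaling, no filter, filterByExpr, a fit of the compared groups alone, a replicate block, DESeq2 1.42.0, limma 3.58.1 on log2(FPKM + 1) and on log2(FPKM + 0.1), counts divided by 4, and leaving out each library of the compared groups. Leaving out M-MDSC sup replicate 2 or untreated replicate 3 in the comparisons that do not include them was added after the values were seen. The labels do not say whether replicate numbers pair libraries across groups. The main model did not use these numbers, and only the replicate block did. The family members, the lists and the tests were chosen with earlier results of these data known. The text names the 10 members, genes that overlap them, up to 4 genes of each list with the largest change among those called, of which 1 is not reported here, and the 3 genes most correlated with each of the 3 members whose group means ranged most. Klf12, Tsc22d3, the marker genes and genes named as 0, low or not called were added to describe a list in full, after their values were seen. Promoter windows are from RefSeq, 250 bases before the start, searched on both strands. They were printed as far as the start in the deposited table, and none was given for Klf5 and Klf10.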

Additional observations from a re-analysis of the deposited data

How the results depend on the processing

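Of 948 alternative values for the 10 members in 6 comparisons, 897 kept their side of the threshold, 31 lost a call, 19 gained one and 1 reversed. The reversal was Klf9 with M-MDSC sup against untreated MSCs, from 0.01 to -0.77 on the log2 scale without M-MDSC sup replicate 2, a fit that leaves out the highest of 3 values, and its range over the libraries left out was -0.77 to 0.32. When only the compared groups were fitted, the count of members called lower went from 1 to 0 with M-MDSC sup and with G-MDSC sup against TGF-β1, and the count over all genes went from 574 to 351 for M-MDSC sup against TGF-β1. For M-MDSC sup against G-MDSC sup, the count over all genes of 15 became 121 with DESeq2, 39 with limma on log2(FPKM + 1), 41 with the compared groups alone and 8 with the replicate block. With M-MDSC sup against untreated MSCs, members called higher went from 1 to 2 with the filterByExpr filter and with no filter, which brought in Klf6. The cause of the other shifts was not tested. Leaving out 1 library at a time gave the following ranges. Members called higher ranged from 2 to 4 for TGF-β1 against untreated (4 without M-MDSC sup replicate 2), from 1 to 2 for M-MDSC sup against TGF-β1, from 1 to 2 for M-MDSC sup against untreated and from 1 to 3 for G-MDSC sup against untreated. Members called lower ranged from 0 to 2 for M-MDSC sup against TGF-β1, from 0 to 1 for G-MDSC sup against TGF-β1 and from 0 to 1 for M-MDSC sup against G-MDSC sup. Genes called in all ranged from 355 to 524 for M-MDSC sup against TGF-β1 (355 without TGF-β1 replicate 2) and from 9 to 47 for M-MDSC sup against G-MDSC sup (47 without M-MDSC sup replicate 3). With the replicate block, Klf10 was called with TGF-β1 against untreated (0.84, adjusted p = 0.025) and Klf7 was not called with G-MDSC sup against untreated (adjusted p = 0.0653). Libraries with the same number in different groups had residuals with a mean correlation of -0.00444 over 18 pairs. Depth limits Klf6 and Klf15, which had at most 164 and 58 counts in a library.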

Other observations

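Klf17, a factor of germ cells and early embryos, had 13, 9 and 8 counts in the 3 libraries with TGF-β1 alone and 0 counts in each of the other 9 libraries, including the 6 with TGF-β1 in a supernatant. It did not pass the filter and was chosen for mention after its values were seen. In the edgeR fit without a filter it was not called with TGF-β1 against untreated MSCs (adjusted p = 0.0844), nor with M-MDSC sup (adjusted p = 0.273) or G-MDSC sup (adjusted p = 0.233) against TGF-β1.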
